A study of Homo sapiens with 6 samples.

Results

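The genes described here encode potassium, calcium and sodium channels and their auxiliary subunits, and 135 of the 58395 genes counted belong to them. They were chosen by gene symbol alone: symbols built as KCN plus a family letter and a number, the calcium channel families CACNA1, CACNA2D, CACNB and CACNG, and the numbered SCN families that end in A or B. That gave 95 potassium, 26 calcium and 14 sodium channel genes. RNA was sequenced from 6 clonal lines of HEK293, a long-established line grown from human embryonic kidney. The NOCT group held 3 lines, numbered 4, 11 and 12, that overexpressed nocturnin (NOCT) without residues 2 to 15, and the GST group held 3 lines, numbered 2, 8 and 9, that overexpressed glutathione S-transferase as the control protein. Both proteins carried the tag written as 3F in the labels, so all 6 lines share the tag, the host cell and an overexpressed protein. Each line is a clone, and each was grown for 3 days in 2 dishes, so differences between lines of a group include differences between clones. The comparison asks how RNA levels in NOCT lines differed from those in GST lines, and no untransfected HEK293 library was analysed here.

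Ion channels are membrane proteins with a pore that passes chosen ions, and they set the membrane voltage of a cell. Voltage-gated potassium channels (Kv) open when the membrane depolarizes and return it to rest, inward rectifiers (Kir) and the K2P family hold the resting voltage, and a further group opens in response to internal calcium or sodium. Voltage-gated calcium (Cav) and sodium (Nav) channels let positive ions in and start signals, and auxiliary subunits alter how the pore proteins reach the membrane and open. HEK293 cells are widely used to study channels introduced from outside because their own currents are small. Nocturnin is a member of a family of nucleases and phosphatases and is known as a clock-controlled gene.

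The libraries held 19729745 to 24422406 reads counted to genes. Reads of the GST construct numbered 88, 46 and 50 in the GST lines and 1, 0 and 0 in the NOCT lines, and reads of the NOCT construct numbered 4, 7 and 3 in the GST lines and 74, 46 and 82 in the NOCT lines, so every library matched its label. All 9 HEK293 marker genes had counts, with a summed level, most of it VIM, of 628 to 862 TPM (a transcript level scaled for gene length and depth) in GST lines and 760 to 1315 in NOCT lines. Single markers differed between the groups: PAX2 had 108, 83 and 96 reads in GST lines and 19, 29 and 24 in NOCT lines, and KRT8 had 1518, 1952 and 1767 against 6432, 4291 and 2217. The summed level of the 3 mature neuron markers, RBFOX3, SNAP25 and SYP, was 4.95 to 6.41 TPM in GST lines and 4.63 to 8.77 TPM in NOCT lines, so the ranges overlapped, with SNAP25 at 52, 63 and 41 reads against 30, 50 and 18 and SYP at 96, 146 and 129 against 323, 176 and 141. The 3 fibroblast markers summed to 3.12 to 3.67 TPM in GST lines and 2.14 to 8.78 TPM in NOCT lines, with COL1A1 at 208, 206 and 201 reads against 588, 470 and 148 and DCN at no more than 2 reads. The 3 muscle markers summed to 0.894 to 2.40 TPM and 1.71 to 2.93 TPM. The part of these markers in the results was not tested. Blood and endothelial markers summed to at most 0.551 TPM in any line, and CD3E had no count in any line.

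Channel genes made up a small share of the RNA, between 8600 and 10815 reads per library. In CPM, here reads scaled to each library's total of gene reads, this was 479, 505 and 464 in GST lines 2, 8 and 9, and 418, 436 and 427 in NOCT lines 4, 11 and 12, so each NOCT line lay below each GST line. Of the 135 genes, 79 had a count in every line, 41 had a mean level of at least 1 TPM and 12 had no count in any line. The 12 were CACNG1, KCNA6, KCNA10, KCNC2, KCNE3, KCNG2, KCNG4, KCNK16, KCNMB1, KCNS1, KCNU1 and KCNV2. A count of 0 allows up to 3 reads, which corresponds to 0.118 to 0.158 CPM depending on the library, for counting error only.

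Levels can be compared between genes in TPM. CACNA2D1, which encodes an alpha2delta subunit of calcium channels and the binding site of gabapentin, had the highest mean of the channel genes, at 18.9 TPM, with 17.8, 15.8 and 16.0 TPM in GST lines 2, 8 and 9 and 22.9, 22.1 and 18.9 TPM in NOCT lines 4, 11 and 12. KCNAB3, a beta subunit of Kv channels, followed at a mean of 12.4 TPM (7.83, 13.7 and 12.97 against 10.7, 13.1 and 15.8). KCNK1, which encodes the K2P channel TWIK-1, had a mean of 11.7 TPM (10.6, 10.1 and 9.03 against 16.6, 14.04 and 9.55). The ranges of KCNAB3 and KCNK1 over the 6 lines overlapped, so their order is not set beyond the spread. Behind them came KCNG3 at 8.47 TPM and KCNMB4 at 8.45 TPM, a Kv modulatory subunit and a beta subunit of the calcium-activated channel, whose line ranges also overlapped. SCN9A, the most abundant sodium channel gene, had a mean of 7.51 TPM, and KCNK2, which encodes the mechanosensitive K2P channel TREK-1, had a mean of 6.94 TPM with the widest range of these genes, 0.342 to 12.5 TPM.

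**Figure D1:**
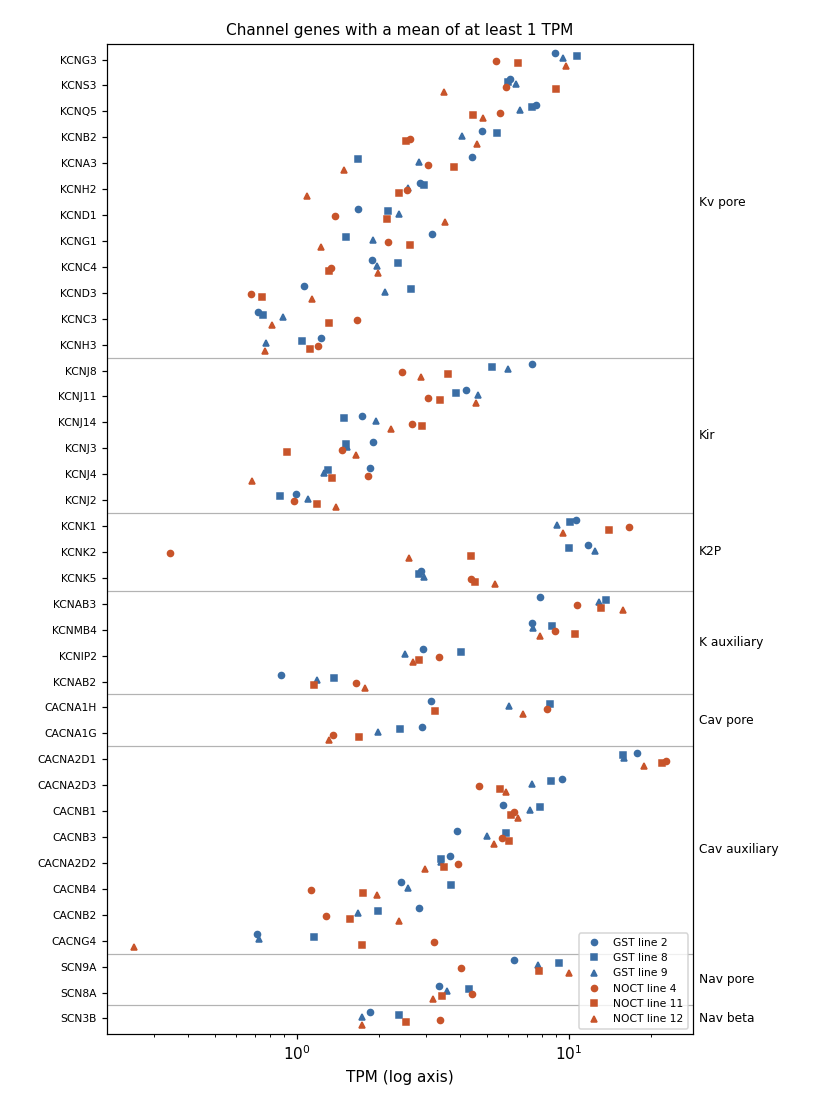
RNA level of 38 of the 41 channel genes with a mean of at least 1 TPM, on a log axis in TPM, with a point for each of the 6 lines coloured by group. CACNA2D1 stands highest at a mean of 18.9 TPM, and KCNK2 spans 0.342 to 12.5 TPM, with its 3 NOCT lines below its 3 GST lines.

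Classes differed in how evenly their RNA was spread over genes. Among the Kv pore genes, where 13 of 40 reached 1 TPM, the leading gene KCNG3 held 18.6% of the class's TPM. In contrast CACNA1H held 62.2% of the Cav pore RNA, SCN9A 56.5% of the Nav pore RNA and KCNK1 48.2% of the K2P RNA. The summed Kv level was 52.6, 51.7 and 49.3 TPM in GST lines 2, 8 and 9 and 38.7, 42.9 and 37.4 TPM in NOCT lines 4, 11 and 12. Thus every NOCT line had less Kv RNA than every GST line. The Kir sum was 19.3, 14.9 and 17.0 TPM against 14.04, 14.3 and 13.8 TPM, again without overlap. The sums of Cav auxiliary genes (44.4 to 49.7 TPM over the 6 lines) were far more even, and the sum of the 4 genes of sodium channel beta subunits ranged from 3.31 to 7.08 TPM.

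Counts of 65 channel genes were high enough to test, and 70 were not tested. Of the 65, 50 passed the count minimum in all 6 lines, and KCNT2 and KCNA4 passed it only through the GST lines, so that they could only be tested because they were higher there. In edgeR's quasi-likelihood test, adjusted over 17261 genes, 0 of the 65 had an adjusted p below 0.05, where 0.0579% of all tested genes did (10 genes). At an unadjusted p below 0.05 the same test marked 16 channel genes, of which 14 were lower in NOCT lines (6.52% of all tested genes were marked as lower) and 2 were higher (7.38% of all tested genes). The 3 NOCT values lay wholly below the 3 GST values for 17 channel genes, against 9.54% of all tested genes, and wholly above them for 3, against 10.5%. The counts include KCNT2 and KCNA4, whose direction the count minimum fixed. Among the other 63 genes, 12 were marked as lower and 2 as higher, and 15 were wholly lower (23.8%) and 3 wholly higher (4.76%). The median log2 fold change of NOCT over GST lines was -0.21 for the tested channel genes, with or without those 2, and 0.0046 for all tested genes. With 3 lines against 3, an exact two-sided permutation test cannot give a p below 0.1, the value it gave for each channel gene whose groups did not overlap. In bulk RNA, fewer cells with a transcript and less of it per cell cannot be told apart.

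**Figure D2:**
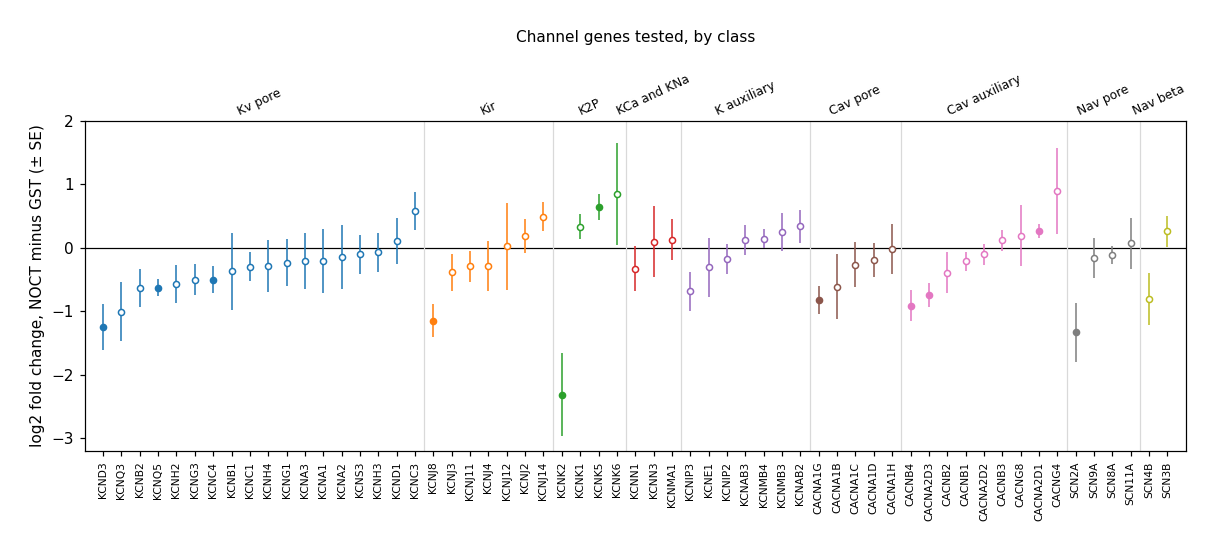
Log2 fold change of NOCT over GST lines for 59 tested channel genes by class, with bars for the standard error and filled points for an unadjusted p below 0.05. KCNT2 and KCNA4 are left out because their fitted values rest on counts near 0, and most filled points lie below 0, with KCNK5 and CACNA2D1 above it.

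The count of called genes depended on the test. DESeq2 gave 8 of the 55 channel genes with an adjusted p a value below 0.05, all lower in NOCT lines, where it called 3.41% of all its genes and 1.59% as lower. They include CACNA1G, CACNA2D3, CACNB4, KCND3, KCNJ8, KCNQ5 and KCNT2. The authors' deposited table, made from the same libraries, lists 93 channel genes, and 11 of the 68 with an adjusted p lie below 0.05 there, all of them lower, against 2.87% of that table's genes called and 1.38% called as lower. Those 11 were the 8 of DESeq2 with KCNA4, KCND2 and KCNV1. In the authors' deposited table KCNT2 had the smallest adjusted p of the 11, 5.2e-05, with a log2 fold change of -1.07. Fold changes in that table are labelled as shrunken and are not on the scale of the fits made here. For KCNT2 those gave -6.42 with DESeq2 and -6.16 with edgeR. The counts of 8 and 11 rest on the same 6 libraries as the edgeR test and are no independent support for it. Without NOCT line 12, edgeR gave 9 of 70 tested channel genes an adjusted p below 0.05, all lower, where 5.42% of all tested genes were called and 2.28% were called as lower. Without a count minimum it gave 11 of 123, all lower, against 2.57% of all genes called and 1.18% called as lower. KCNT2 is among the calls of each of these tests. In DESeq2 and without NOCT line 12 the count minimum fixed its direction, as it did for KCND2 without NOCT line 12. KCNA4, KCND2 and KCNV1, called in the authors' deposited table and without a count minimum, also had few reads in NOCT lines.

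The sequence before the RefSeq start is given for 4 of the genes with lower values. They are 200 bases before the RefSeq start on GRCh38.p14, read 5′ to 3′ along the gene, and capitals mark the GC box GGGCGG and the right part of the REST element, GGACAG, on either strand. REST is a repressor that silences neuronal genes, channels among them, in non-neuronal cells. The windows are KCNT2 at chr1:196608441-196608640 (minus strand), KCNQ5 at chr6:72621864-72622063 (plus), KCNJ8 at chr12:21774707-21774906 (minus) and KCNK2 at chr1:215005342-215005541 (plus).
KCNT2: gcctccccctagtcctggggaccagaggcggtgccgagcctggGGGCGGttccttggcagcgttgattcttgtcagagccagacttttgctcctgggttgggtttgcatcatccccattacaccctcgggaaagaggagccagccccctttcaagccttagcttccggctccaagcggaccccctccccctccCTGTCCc
KCNQ5: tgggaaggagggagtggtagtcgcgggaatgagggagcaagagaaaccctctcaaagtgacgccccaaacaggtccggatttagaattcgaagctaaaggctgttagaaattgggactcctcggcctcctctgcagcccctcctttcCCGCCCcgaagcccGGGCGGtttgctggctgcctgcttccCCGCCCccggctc
KCNJ8: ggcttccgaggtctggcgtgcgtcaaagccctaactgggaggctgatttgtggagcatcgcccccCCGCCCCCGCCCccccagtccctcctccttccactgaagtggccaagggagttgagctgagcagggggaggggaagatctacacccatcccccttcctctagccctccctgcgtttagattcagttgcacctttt
KCNK2: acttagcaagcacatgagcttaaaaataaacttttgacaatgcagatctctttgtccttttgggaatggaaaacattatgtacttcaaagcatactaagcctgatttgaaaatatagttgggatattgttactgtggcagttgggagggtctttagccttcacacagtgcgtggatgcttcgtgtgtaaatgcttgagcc
KCNQ5 has 3 GC boxes, KCNJ8 a pair that touch, KCNT2 a GC box and a REST right part, and KCNK2, at 39.5% G and C, none of the motifs searched. In the 250 bases before the start, the GC box occurred in 42.6% of all 35116 promoters and in 56 of the 97 channel promoters found (57.7%). It occurred in 33 of the 45 found among tested channel genes (73.3%) and in 6 of the 10 found among the genes with lower values at an unadjusted p below 0.05. The share among all tested genes was not taken. Channel genes had 1 promoter each, whereas the 35116 were not reduced to 1 per gene. The median G and C content was 58% for all promoters, 64.8% for channel promoters and 68.8% for those of tested channel genes. The REST left part TTCAGCACC occurred in 0.288% of all promoters, in 3 of 97 channel promoters and in 0 of the 10, and the right part in 17.2%, 24.7% and 1 of 10. The E-box CACGTG occurred in 6.34% of all promoters and 5.15% of the channel promoters, the CREB site TGACGTCA in 1.65% and 1.03%, and TATAAA in 10.7% and 7.22%. These are matches of letters only, and RefSeq starts can differ from the starts used in HEK293. The printed windows of KCNT2, KCNQ5 and KCNJ8 lie inside the genes as placed by GENCODE 29, whose starts are further upstream. The KCNK2 window lies before the start placed there.

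Voltage-gated potassium channels were the largest class tested, with 21 of 40 genes. Without KCNA4, which was tested only through the GST lines, 18 of 20 had a log2 fold change below 0 (49.3% of all tested genes), 5 were lower at an unadjusted p below 0.05 (6.52%), 0 were higher (7.38%), and the median was -0.33. The groups of 7 of the 20 did not overlap, all of them lower in NOCT lines (9.54% of all tested genes). They included KCNQ3 and KCNQ5, members of the KCNQ family, whose proteins carry slowly activating potassium currents, among them the M-current that limits repeated firing of neurons.

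KCNQ5 (chr6:72621792-73198851, plus strand, GRCh38, GENCODE 29) encodes an M-type subunit. It had 21.3, 19.0 and 18.02 CPM in GST lines 2, 8 and 9 and 13.6, 11.3 and 12.9 CPM in NOCT lines 4, 11 and 12, so that the highest NOCT line had less than the lowest GST line. The means were 19.4 ± 1.68 and 12.6 ± 1.17 CPM (SD, n = 3), and the log2 fold change was -0.62 ± 0.14 (SE) with an edgeR adjusted p of 0.156. KCNQ3, which also takes part in the M-current, had 1.21, 1.76 and 1.33 CPM against 0.785, 1.08 and 0.251 CPM (log2 fold change -1.01 ± 0.47, edgeR adjusted p = 0.385). KCNQ1, which carries a slow cardiac potassium current, was too low to test, with 8, 10 and 7 reads in GST lines and 20, 6 and 12 in NOCT lines, and its groups overlapped.

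Among the Kv genes that carry fast inactivating A-type currents, KCND3, KCNA4 and KCND2 were low in HEK293. KCND1, of the KCND family too, had its lowest value in NOCT line 4 and its highest in NOCT line 12, so its groups overlapped. KCND3 had 3.11, 7.10 and 5.99 CPM in GST lines and 1.73, 1.97 and 3.16 CPM in NOCT lines (log2 fold change -1.25 ± 0.37, edgeR adjusted p = 0.217). The highest NOCT line thus slightly exceeded the lowest GST line. KCNA4 had 25, 11 and 21 reads in GST lines and 1, 5 and 0 in NOCT lines, a CPM ratio of 10.6 (95% counting interval 4.57 to 30.0). With a line left out the ratio ranged from 7.46 (3.22 to 21.2), without NOCT line 12, to 42.5 (7.33 to 1708), without NOCT line 11. NOCT line 11 held 5 of the 6 NOCT reads of KCNA4. KCND2, of the same kind, and KCNV1, a modulatory subunit that carries no current alone, are named because the authors' deposited table calls them, and were not tested here by edgeR. KCND2 had 8, 22 and 32 reads against 0, 2 and 2, and KCNV1 had 33, 9 and 21 against 5, 1 and 0. KCNA4, KCND2 and KCNV1 each had fewer reads in each NOCT line than in any GST line. These intervals and counts cover counting error only, not the difference between clones.

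Shaw-type Kv channels support fast repolarization. KCNC4 had 17.7, 20.2 and 17.8 CPM in GST lines, and NOCT lines 4 and 11 had 10.8 and 11.1 CPM, whereas NOCT line 12, at 17.6 CPM, was level with the GST lines. Its log2 fold change was -0.50 ± 0.21 (edgeR adjusted p = 0.338). KCNC1 and KCNH2, the latter encoding the cardiac repolarizing channel hERG, had log2 fold changes of -0.29 and -0.57 with groups that did not overlap. The most abundant Kv genes were less clear: KCNG3, a modulatory subunit that forms no channel alone, gave -0.50 with 8.93, 10.7 and 9.53 TPM against 5.41, 6.50 and 9.73 TPM. KCNS3, of the same kind, gave -0.10, a value whose sign turned in 3 of the alternatives.

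Inward rectifiers had 7 genes tested and a median log2 fold change of -0.28. KCNJ8 (chr12:21764955-21775581, minus strand), which encodes a pore subunit of ATP-sensitive potassium channels, was the leading gene of the class and held 29.3% of its TPM. It had 6.75, 4.45 and 5.35 CPM in GST lines and 1.96, 3.00 and 2.51 CPM in NOCT lines, with no overlap (log2 fold change -1.15 ± 0.26, edgeR adjusted p = 0.158). KCNJ11, the other pore subunit of that channel type, gave -0.29 (edgeR adjusted p = 0.634). Its sulfonylurea receptor partner ABCC8 gave -0.43 ± 0.32 (edgeR adjusted p = 0.587), and the groups of both genes overlapped. KCNJ14 was higher in each NOCT line, with 2.79, 2.23 and 3.04 CPM against 3.73, 4.21 and 3.41 CPM (log2 fold change 0.49, edgeR adjusted p = 0.389). KCNJ12 cannot be read with confidence, because it has a near-identical copy from which 50 bp reads cannot always be told.

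The K2P class held values in both directions. KCNK2 (chr1:215005775-215237093, plus strand) had 325, 290 and 359 reads in GST lines 2, 8 and 9 and 11, 129 and 71 reads in NOCT lines 4, 11 and 12. In CPM the GST lines were alike at 17.1, 13.4 and 17.6, whereas the NOCT lines were 0.432, 5.78 and 3.56, all lower but far apart. The log2 fold change was -2.31 ± 0.65 with an edgeR adjusted p of 0.205. With a line left out it ranged from -3.05, without NOCT line 11, to -1.78, without NOCT line 4. KCNK5 (chr6:39188973-39229450, minus strand), which encodes TASK-2, a channel of kidney epithelium that opens at alkaline pH, had 4.01, 3.62 and 3.98 CPM in GST lines and 5.30, 5.73 and 7.12 CPM in NOCT lines. Here each NOCT line lay above each GST line (log2 fold change 0.64 ± 0.20, edgeR adjusted p = 0.235). KCNK1 gave 0.34, with NOCT line 12 inside the range of the GST lines.

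Among potassium channels opened by internal calcium or sodium, KCNT2 (chr1:196225779-196609225, minus strand) stood apart. It encodes a sodium-activated channel known as Slick. It had 106, 15 and 27 reads in GST lines 2, 8 and 9 and 1, 0 and 1 in NOCT lines, at or under the limit that a count of 0 allows. The CPM ratio of GST to NOCT lines, from the summed reads, was 82.3 (95% counting interval 22.4 to 686), and the edgeR adjusted p was 0.111. GST line 2 alone held most of the GST reads, and without it the ratio was 33.9 (8.83 to 289). The rest of the class was low, with no gene at a mean of 1 TPM. The potassium auxiliary genes had 7 tested, a median of 0.13, and 0 at an unadjusted edgeR p below 0.05. Groups did not overlap for 1 of the 7, lower in NOCT lines, near the 9.54% of all tested genes that were wholly lower. It was KCNIP3, which encodes a calcium-binding partner of KCND channels and gave -0.68.

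**Figure D3:**
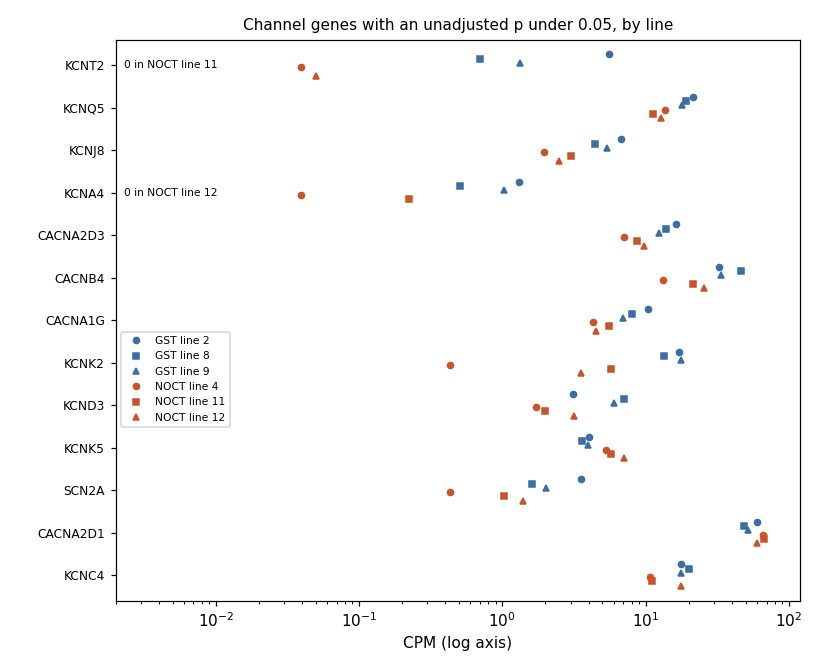
CPM (log axis) in each of the 6 lines for 13 of the 16 channel genes with an unadjusted p below 0.05, with GST and NOCT lines in different colours and zero counts marked at the edge. KCNQ5 and KCNJ8 have separate groups with narrow spreads, KCNK2 has tight GST lines and scattered NOCT lines, and KCND3 is the gene whose groups overlap.

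Of the 5 tested Cav pore genes, 1 was lower at an unadjusted p below 0.05 (6.52% of all tested genes were). All 5 had a log2 fold change below 0, as did 49.3% of all tested genes, with a median of -0.26, but CACNA1H lay at 0 within its error and turned sign in several alternatives. CACNA1G (chr17:50561068-50627474, plus strand), a low-voltage-activated T-type channel, had 10.4, 7.98 and 6.92 CPM in GST lines and 4.28, 5.55 and 4.51 CPM in NOCT lines, without overlap (log2 fold change -0.82 ± 0.22, edgeR adjusted p = 0.196). CACNA1H (chr16:1153121-1221772, plus strand), a T-type channel too and the most abundant Cav pore gene, had 10.0, 25.1 and 18.6 CPM against 23.2, 9.32 and 20.6 CPM. Lines of both groups were high and low, and the log2 fold change was -0.02 ± 0.40 (edgeR adjusted p = 0.989).

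Auxiliary subunits carry the calcium channel to the membrane. CACNB4 (chr2:151832768-152099475, minus strand), a cytoplasmic beta subunit, had 32.7, 46.0 and 33.6 CPM in GST lines and 13.2, 21.4 and 25.4 CPM in NOCT lines (log2 fold change -0.91 ± 0.24, edgeR adjusted p = 0.196). CACNA2D3 (chr3:54122547-55074557, plus strand), an alpha2delta subunit, had 16.4, 13.8 and 12.3 CPM against 7.03, 8.78 and 9.68 CPM (log2 fold change -0.74 ± 0.18, edgeR adjusted p = 0.184). In both, the groups were separate. CACNA2D1 (chr7:81946444-82443798, minus strand), of the same alpha2delta family, was instead higher in each NOCT line, with 59.8, 48.8 and 51.8 CPM against 66.5, 67.1 and 59.96 CPM. The gap between GST line 2 and NOCT line 12 was narrow, and the log2 fold change was 0.27 ± 0.11 (edgeR adjusted p = 0.319). Hence 2 members of the alpha2delta family had opposite directions, which the class sum does not show.

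Sodium channels had 8 genes tested. SCN2A (chr2:165194993-165392310, plus strand), a main channel of brain neurons, had 3.53, 1.62 and 2.01 CPM in GST lines and 0.432, 1.03 and 1.40 CPM in NOCT lines (log2 fold change -1.33 ± 0.47, edgeR adjusted p = 0.270). The groups of SCN2A did not overlap. SCN9A (chr2:166195185-166376001, minus strand), known from pain sensing neurons, had 32.3, 43.4 and 38.2 CPM against 17.9, 36.1 and 48.6 CPM, with the lowest and the highest values both in NOCT lines (log2 fold change -0.15 ± 0.31, edgeR adjusted p = 0.858). SCN8A, a channel of axon initial segments, gave -0.11, and turned sign when scaled by the spike-ins.

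Several channel genes differed strongly between lines. The ratio of the highest to the lowest of the 6 lines was 40.8 for KCNK2, 11.6 for CACNG4, 8.18 for SCN2A, 7.05 for KCNJ12, 7.03 for KCNQ3, 6.73 for CACNA1B and 4.72 for KCNA1. NOCT line 12 held the lowest value of CACNG4, KCNJ12, KCNQ3, CACNA1B and KCNA1, and NOCT line 4 the lowest of KCNK2 and SCN2A. Among the NOCT lines alone the ratio was 13.4 for KCNK2, 11.6 for CACNG4, 7.05 for KCNJ12, 4.29 for KCNQ3 and 3.25 for SCN2A. Among the GST lines it was 1.31 for KCNK2 and 3.22 for KCNJ12. CACNG4, a gamma subunit, had 0.896, 1.34 and 0.884 CPM in GST lines and 3.49, 1.97 and 0.301 CPM in NOCT lines, so its NOCT lines lay on both sides of the GST lines. Counted over the 65 tested genes, NOCT line 12 was the lowest of the 6 lines for 26 genes (40% of them, and 17.9% of all tested genes) and NOCT line 4 for 18 (27.7%, and 21.1%). NOCT line 11 was lowest for 7. GST line 2 was the highest for 24 genes (36.9%, and 17.5% of all tested genes). Against the mean of the GST lines, the median log2 deviation of the channel genes was -0.19, -0.13 and -0.30 in NOCT lines 4, 11 and 12, and 0.12, -0.03 and -0.07 in GST lines 2, 8 and 9.

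For some channel genes, part of the spread between lines was shared with genes nearby on the chromosome. For each member the median log2 deviation was taken in each line over the nearest tested genes, at most 50 to either side. Of the 65 members, 17 had neighbours more than 0.25 from the mean of the lines in at least 1 line. The same count was not made over all tested genes, so it shows nothing particular to channel genes. SCN2A and SCN9A lie near each other on chromosome 2. SCN2A deviated by -1.69 in NOCT line 4, where its neighbours deviated by -0.39, and by 1.35 in GST line 2, where they deviated by 0.11. Likewise SCN9A deviated by -0.95 in NOCT line 4, where its neighbours deviated by -0.37, and by 0.50 in NOCT line 12, where they deviated by 0.09. Both genes and their surroundings were thus lowest in NOCT line 4, but the genes deviated more. Over chromosome 2 as a whole the median deviation in NOCT line 4 was -0.37, so the low level there was not limited to these neighbours. CACNA1H deviated by -0.73, 0.60 and 0.17 in GST lines 2, 8 and 9 and by 0.48, -0.83 and 0.31 in NOCT lines 4, 11 and 12, and its neighbours by -0.12, 0.38 and 0.28 and by -0.08, -0.27 and -0.18. The signs were the same in GST lines 2, 8 and 9 and NOCT line 11 and opposite in NOCT lines 4 and 12.

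**Figure D4:**
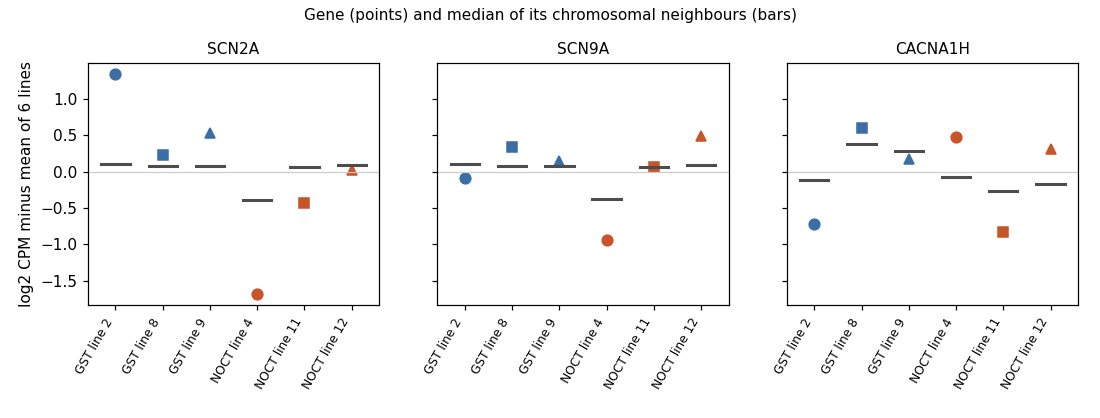
Log2 deviation from the mean of the 6 lines for SCN2A, SCN9A and CACNA1H (points) and the median of their chromosomal neighbours (bars) in each line. In SCN2A and SCN9A the lowest point and the lowest bar are both in NOCT line 4, and in CACNA1H point and bar share their sign in 4 of 6 lines, all but NOCT lines 4 and 12.

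When each line's neighbour level was taken out, KCNQ5 had a log2 fold change of -0.68, CACNB4 of -0.77 and SCN2A of -1.21. With that offset 19 of the 65 channel genes were lower and 3 higher without overlap, where 9.84% and 10% of all tested genes were, and the median was -0.22. The 19 include KCNT2 and KCNA4, whose direction the count minimum fixed. CACNA1H turned sign, to 0.37.

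The scale of the comparison moved the median and the counts without overlap. On the spike-in scale 0 channel genes had an edgeR adjusted p below 0.05 and 16 an unadjusted one, the same numbers as in the main test. Of the 16, 11 were lower (2.64% of all tested genes were) and 5 higher. With libraries scaled by the summed spike-in reads the median of all tested genes was 0.15 and that of the channel genes -0.07. A change of scale shifts all genes by nearly the same amount. Under it, 11 of the 65 channel genes were lower and 4 higher without overlap, where 3.96% and 22.9% of all tested genes were. The 11 again include KCNT2 and KCNA4.

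Genes that work beside the channels were read from 3 lists. Of 27 channel partners, 18 were tested, 2 were higher at an unadjusted p below 0.05 (CACHD1, with a log2 fold change of 0.29, and CALM3, a calmodulin gene, with 0.25), 0 were lower and the median was 0.05. Over all tested genes 7.38% were higher and 6.52% lower at that threshold, so the counts of the 3 lists lie near the background. REST itself had 98.1, 70.3 and 74.0 CPM in GST lines and 82.9, 95.2 and 73.3 CPM in NOCT lines, so its groups overlapped, and its log2 fold change was 0.05. Of 33 other cation channels 21 were tested, with 2 lower (STIM1 at -0.28 and ITPR1 at -0.46) and 2 higher (ITPR3 at 0.95 and RYR1 at 1.96). The groups of ITPR1, ITPR3 and RYR1 overlapped. RYR1 had 1.37, 1.21 and 1.42 CPM in GST lines and 8.71, 5.87 and 0.902 CPM in NOCT lines, so that NOCT line 12 was the lowest of the 6. Of 18 pumps and exchangers 14 were tested, with 1 lower and 1 higher. The lower one was SLC8A1, the sodium-calcium exchanger, with 7.80, 12.2 and 7.91 CPM in GST lines and 2.28, 0.627 and 0.0501 CPM in NOCT lines (log2 fold change -3.18 ± 0.76, edgeR adjusted p = 0.165), which did not overlap. The higher one was ATP1B1, a sodium pump subunit, at 0.49, and its groups overlapped, with NOCT line 12 below each GST line. No tested gene of the 3 lists had an edgeR adjusted p below 0.05.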

How the data were processed

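The data are stranded, ribosome-depleted 50 bp RNA-seq libraries from 6 clonal lines. The deposited count tables list whole reads for every gene, and the deposited TPM values carry the same counts scaled for length and depth. In TPM, 49 rows repeat a gene and were used once. The authors' deposited comparison gives a log2 fold change labelled as shrunken, a test score, a p-value, an adjusted p-value and a signal, the mean normalised count. Its direction was read from the construct rows. Per the submitters' processing notes, the tools include cutadapt 1.8.1, Trimmomatic 0.33, STAR 2.5.2b, HTSeq 0.6.1p1 and DESeq2 1.16.1, and the build GRCh38; the annotation release is not given in the sources used here.

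The 135 members were joined by gene identifier, and all 135 were placed with GENCODE 29. Rows that name no gene (42.9% to 47.1% of reads) stayed out of library sizes and tests. In R 4.3.3, edgeR 4.0.16 kept 17261 genes with filterByExpr (at least 0.475 CPM in 3 lines), scaled by TMM, and tested NOCT against GST lines by quasi-likelihood, with p-values adjusted after Benjamini and Hochberg over those genes. The biological coefficient of variation was 19.7%. On simulated counts, 62 of 100 genes with a log2 change of 1 and 96 of 100 with a log2 change of 2 were recovered, with 14 false calls among 16937 genes. The changed genes were drawn only from those with more reads, so this recovery does not carry over to channel genes with few reads.

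CPM of single genes and ratios use TMM-scaled totals. The standard error is the log2 fold change over the root of the F statistic. Alternatives were DESeq2 1.42.0, limma-voom (limma 3.58.1), other size factors and filters, the spike-in scale, log2 TPM with a pseudocount, the neighbour offset, and each line left out. Genes were named by smallest p in each direction, highest TPM per class, largest ratio between lines, and SCN9A. The members and lists were chosen with earlier results of these data known. Replicates are clones, and p-values weigh the difference between the groups against the spread between clones. Promoters came from RefSeq, where 97 members were found. Some members are not reported here by name or in the figures.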

Additional observations from a re-analysis of the deposited data

How the results depend on the processing

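No paired analysis was possible because the groups share no replicate numbers. The number of channel genes with an adjusted p below 0.05, 0 in edgeR, was 8 with DESeq2, 11 without a count minimum, 0 with limma-voom and 0 to 9 with a line left out, the 9 without NOCT line 12. The number of all genes called, 10, was 508 with DESeq2, 16 with limma-voom, 22 on the spike-in scale, 888 without a count minimum, 36 with the neighbour offset and 0 to 970 with a line left out. Of the tested channel genes, 20 had groups that did not overlap, and 23 to 36 did with a line left out, the 36 without NOCT line 12. These counts include KCNT2 and KCNA4. The shares of all tested genes rose as well. With a line left out 12.9% to 20.1% were wholly lower, against 9.54%, and 13% to 21.5% wholly higher, against 10.5%. The highest shares were those without NOCT line 12. Smaller groups overlap less often by construction. The median log2 fold change, -0.21, was -0.0656 on the spike-in scale and -0.0635 for log2(TPM + 1), and -0.29 to -0.13 with a line left out. The count at an unadjusted p below 0.05, 16, stayed within 13 to 24 under every alternative run.

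Of 30 named members with a fold change, 23 kept its sign in every alternative that gave them a value, 21 of them in all 15 planned ones. KCNA4 and KCNN1 had no value under the higher count minimum. Counting only the 63 channel genes over the count minimum in both groups, an alternative chosen after seeing the data, gave 0 called, 14 at an unadjusted p below 0.05 and 18 without overlap. CACNA1H (-0.02) was 0.12 on the spike-in scale, 0.0512 for log2(TPM + 1), 0.0599 for log2(TPM + 0.1), 0.37 with the neighbour offset and -0.31 to 0.29 with a line left out. KCNJ12 (0.03) was -0.0024 with DESeq2, -0.10 with limma-voom, -0.0411 for log2(TPM + 0.1) and -0.83 to 0.76 with a line left out. KCNS3 (-0.10) was 0.0587 on the spike-in scale, 0.20 with the neighbour offset and -0.49 to 0.16 with a line left out. SCN8A (-0.11) was 0.0341 on the spike-in scale. With a line left out SCN9A (-0.15) ranged from -0.50 to 0.15, the 0.15 without NOCT line 4, KCNA1 (-0.21) from -0.82 to 0.17, the 0.17 without NOCT line 12, and KCNAB3 (0.13) from -0.0677 to 0.28. For these values the cause was not tested. Genes with few reads, such as KCNT2, KCNA4, KCND2 and KCNV1, are limited by depth, and their ratios have wide intervals.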
